A study of Mesocricetus auratus with 24 samples.

Results

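The 19 windows described here are stretches of 1 kb in which cytosine methylation was lower in both the senescence-bypass and the senescent libraries of 1 Syrian hamster culture than in the 4 other groups of the study. A window was measured when each of the 24 libraries listed at least 3 CpG positions in it, strands counted apart, and 22842 windows were. Its level in a library is the percent of all reads over those positions that carried a methylated cytosine. The 19 windows, 0.0832% of those measured, had bypass and senescent means each at least 20 percentage points, called points from here on, below the lowest of the 4 other group means, and less than 15 points apart. The windows were chosen by those bypass and senescent levels, so the low values in bypass and senescent libraries are given as a description, without a test.

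All cells came from Syrian hamster fetuses and passed through a cell transformation assay, in which fetal cells grow into colonies that are scored for altered morphology after exposure to a chemical. Colonies were exposed to benzo[a]pyrene, abbreviated B[a]P, a hydrocarbon of combustion smoke whose metabolites bind DNA. The bypass group (SENbp, day 94) and the senescent group (SEN, day 48) were 4 technical replicates each of 1 culture, grown from 1 morphologically transformed colony treated with 5 µg/mL B[a]P. The transformed colonies (MTc) and the normal colonies (Nc) were 4 biological replicates each, expanded for 19 to 25 days from colonies treated with 5 µg/mL B[a]P. The B[a]P pools (5 µg/mL) and the vehicle pools (DMSO, 0.2%) held about 60 colonies each, with 4 biological replicates per group, on day 9. All material was typed as male, but the bypass and senescent culture came from an assay on fetuses of both sexes pooled, and the other 16 libraries from a single male fetus. The state of this 1 culture, its cell stock, its longer time in culture and differences in DNA sequence between stocks therefore cannot be told apart in any contrast of the 8 bypass and senescent libraries with the rest. Equally, a window low on day 48 and on day 94 may have been low in the colony or in the stock from the start, since no earlier sample of this culture was analysed here.

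CpG methylation is copied to the new strand after DNA replication by the maintenance methyltransferase DNMT1, while DNMT3A and DNMT3B place it on unmethylated DNA. In mammalian cells most CpGs outside CpG islands are methylated and most islands are not. Cultured cells commonly lose part of the methylation of the methylated fraction as they divide, and senescent fibroblasts are known for lower methylation outside islands. Reduced representation bisulfite sequencing cuts the genome with an enzyme whose site contains a CpG, so it reads short CpG-rich fragments. A 1 kb window is therefore often represented by 1 or a few fragments. Windows are named by their scaffold and their first and last base, as in the deposited files. Genes and DNA sequence are not given, because an annotation and a genome of that assembly were not used here.

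Libraries listed 809562 to 1484688 positions, with a median coverage of 21 to 38 reads and a coverage summed over positions of 30316233 to 67276906. Replicates of a group came from separate colonies or pools only in the other 4 groups, so the spread in the bypass and senescent groups is technical. No 2 libraries were copies of each other, since at most 2.31% of shared positions had identical coverage and level in any of the 276 pairs of libraries.

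Averaged over the 19 windows, the 4 bypass libraries were at 23.3%, 25.6%, 26.0% and 22.8%, and the 4 senescent libraries at 24.7%, 21.2%, 27.8% and 24.0%. Transformed colonies were at 64.3%, 59.3%, 65.2% and 65.0%, and normal colonies at 53.6%, 49.3%, 73.0% and 56.9%. B[a]P pools were at 61.4%, 58.3%, 65.1% and 63.8%, and vehicle pools at 59.5%, 60.1%, 59.1% and 58.9%. On this average the 8 libraries of the culture lay close together, and no library of the other groups came near them. The rule set the gap between the group means and held bypass and senescence close, so nothing is read from this. In single windows the 8 spread more, as from 0% to 79.4% in APMT01207187.1. Group means were 24.4% ± 1.63 for bypass and 24.4% ± 2.69 for senescence. Transformed colonies averaged 63.5% ± 2.80, normal colonies 58.2% ± 10.3, the B[a]P pools 62.2% ± 2.99 and the vehicle pools 59.4% ± 0.534 (SD, n = 4 each). Normal colonies had the widest spread, with replicate 3 at the top and replicate 2 at the bottom.

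**Figure D1:**
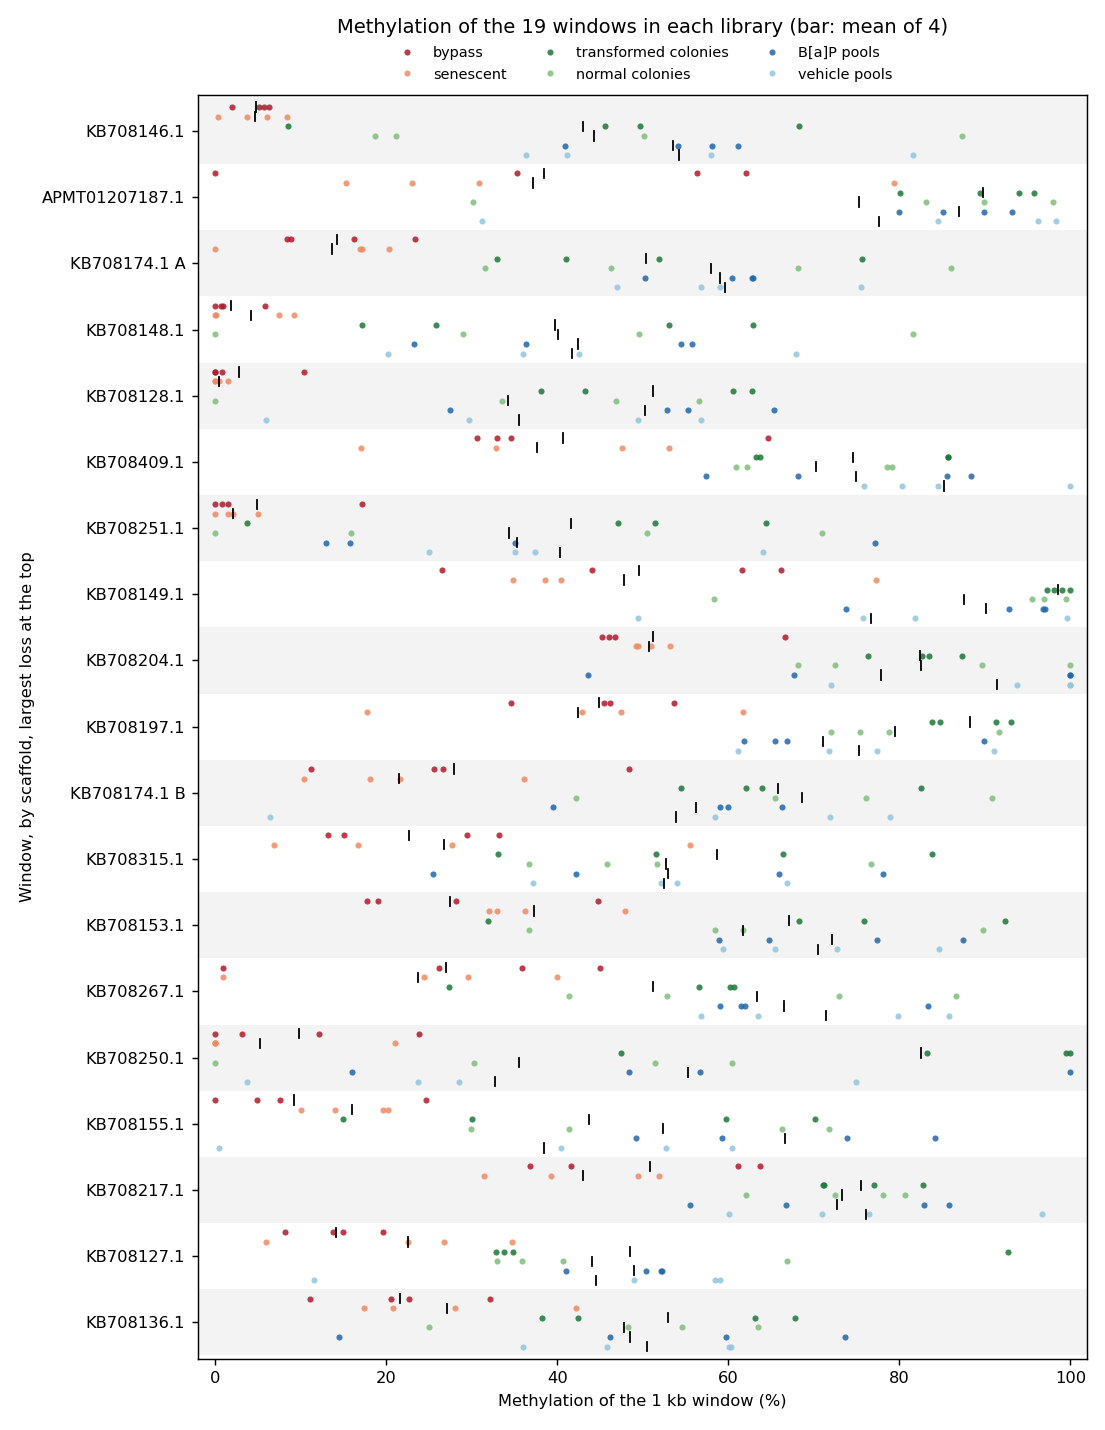
Methylation level (percent, horizontal axis) of each of the 19 windows (rows) in each of the 24 libraries, 1 point per library, coloured by group. KB708174.1 A is the window from 12197001 and KB708174.1 B the window from 6717001. The bypass and senescent means (bars) lie to the left of the other group means in every row, while single points overlap in most rows. Only in the rows KB708146.1 and KB708174.1 A do all 8 bypass and senescent points lie below all 16 points of the other groups.

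The low level was not a general property of the culture. Over the 8414 windows that could have met the rule, those with a lowest other mean of 20% or more, bypass libraries averaged 78.0% to 78.2% and senescent libraries 75.5% to 76.8%, while libraries of the other 4 groups averaged 67.4% to 75.1%. Windows that gained by the mirrored rule, at least 20 points above the highest other mean and less than 15 points apart, numbered 269, which was 1.5% of the 17981 windows that could gain. The 19 lost windows were 0.226% of the 8414 that could be lost. Losses shared by bypass and senescent libraries were thus counted at a lower share of the eligible windows than shared gains.

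**Figure D2:**
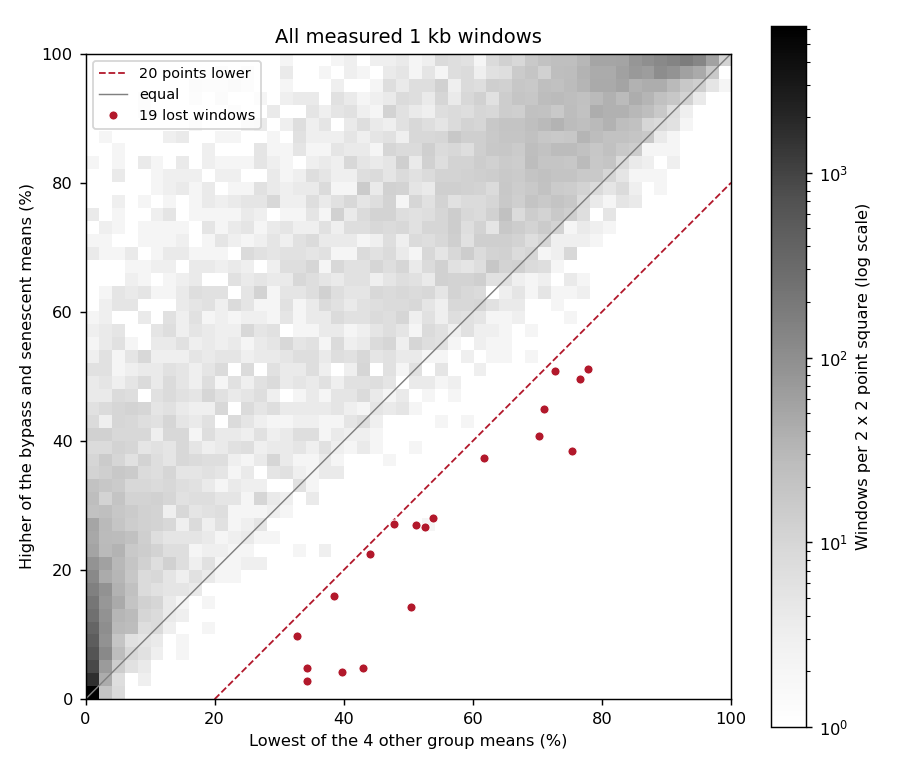
Lowest of the 4 other group means (percent, horizontal axis) against the higher of the bypass and senescent means (percent, vertical axis) for the 22842 measured windows; grey shading is the number of windows per square on a log scale, and the red points are the 19 lost windows. The dashed line marks 20 points below equality, and most shaded squares lie above the solid line of equality.

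The loss of a window, the lowest of the 4 other means minus the higher of the bypass and senescent means, ran from 20.7 to 38.2 points, with a median of 26.1 points. The lowest other mean was that of normal colonies in 7 windows, vehicle pools in 5, transformed colonies in 4 and B[a]P pools in 3. The windows lay on 18 scaffolds, and no pair lay within 5 kb of each other. All 8 bypass and senescent libraries were below all 16 others in 2 windows, against 0.0175% of all measured windows (4 of 22842); the reverse, all 8 above all 16, held in 0.81% of them. The rule itself favours such windows, and nothing is read from the count. All 8 were below at least 12 of the 16 others in 16 windows. In 15 windows at least 1 colony library, and in 14 at least 1 pool library, was at or below the highest of the 8. How often such partial overlap occurs over all measured windows was not counted, and the rule bears on it too. These counts therefore only describe the lost windows, in most of which group means differed while single libraries overlapped.

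The windows fell into 3 level classes by the higher of their bypass and senescent means, drawn after the values were seen. In 5 windows that mean was 10% or less, beside lowest other means of 32.7% to 43.0%. In 7 windows it lay above 10% and up to 30%, and in 7 above 30%, up to 51.2%, beside lowest other means of 61.7% to 77.8%. Losses therefore ended at all levels from near 0 to about the middle of the scale.

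The window KB708146.1:13327001-13328000 had the largest loss, 38.2 points. Its level was 5.18%, 6.35%, 5.71% and 2.02% in bypass libraries and 3.73%, 0.337%, 6.05% and 8.35% in senescent libraries. Transformed colonies had 68.3%, 8.47%, 45.5% and 49.7%, and normal colonies 18.7%, 21.2%, 87.3% and 50.2%. B[a]P pools had 54.1%, 61.1%, 40.9% and 58.2%, and vehicle pools 36.4%, 81.6%, 41.1% and 58.0%. The groups did not overlap, but the gap was small, since transformed colony replicate 2 at 8.47% was just above senescent replicate 4 at 8.35%. It is the only one of the 19 windows in which the same 5 positions, on 1 strand from 13327217 to 13327280, were listed in all 24 libraries, with 134 to 776 reads per library. At 4 of the 5 positions the loss was 20 points or more, and at the first it was 2.59 points.

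In KB708148.1:16846001-16847000 bypass libraries had 0%, 0.725%, 5.87% and 0.985%, and senescent libraries 0%, 9.24%, 7.52% and 0.102%. Transformed colonies ranged from 17.2% to 62.9%, normal colonies from 0% to 81.6%, B[a]P pools from 23.3% to 55.8% and vehicle pools from 20.2% to 67.9%. One normal colony, replicate 4 at 0%, lay within the range of the 8 libraries, and the 15 others lay above it. The loss was 35.5 points over 218 to 1578 reads per library.

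KB708128.1:11650001-11651000 was the lowest window in senescence. Bypass libraries had 0.778%, 0%, 0% and 10.3%, and senescent libraries 0%, 0.415%, 1.504% and 0%. Transformed colonies had 38.1%, 43.3%, 60.6% and 62.7%, and normal colonies 46.9%, 0%, 56.6% and 33.5%. B[a]P pools had 52.9%, 27.4%, 65.3% and 55.4%, and vehicle pools 49.5%, 5.95%, 56.9% and 29.6%. Of these 16 libraries, normal colony replicate 2 at 0% and vehicle pool replicate 2 at 5.95% overlapped the 8. This window rested on 16 to 52 positions and 388 to 2258 reads per library, and 12 of its 17 comparable positions, defined below with the single positions, were lost by 20 points or more.

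The remaining near-zero windows overlapped more. KB708251.1:1721001-1722000 averaged 4.86% ± 8.23 in bypass and 2.15% ± 2.11 in senescence, against 41.7% ± 26.3 for transformed and 34.3% ± 32.3 for normal colonies (SD, n = 4 each). The B[a]P pools averaged 35.2% ± 29.6 and the vehicle pools 40.4% ± 16.7. Its bypass replicate 1 was at 17.2%, above 5 of the 16 other libraries, which left 11 above the 8. In KB708250.1:2771001-2772000 bypass libraries had 0%, 3.11%, 23.8% and 12.1% and senescent libraries 0%, 21.1%, 0% and 0%. Transformed colonies had 99.5%, 83.2%, 47.4% and 100.0%, and normal colonies 30.2%, 0%, 60.4% and 51.4%. B[a]P pools had 56.7%, 16.0%, 100.0% and 48.4%, and vehicle pools 74.9%, 23.7%, 28.6% and 3.75%. All 4 transformed colonies were above the 8, while some library of each other group was not. KB708250.1 is 1 of 10 scaffolds on which relative coverage was lower in bypass than in senescence by more than 0.5 on the log2 scale, here -0.91, and KB708217.1, at -1.06, is another that holds a lost window. The part of that coverage difference in their levels was not tested.

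Among windows of the middle class, KB708174.1:12197001-12198000 was the other one without overlap. Bypass libraries had 23.4%, 8.35%, 8.89% and 16.2%, and senescent libraries 20.3%, 0%, 17.2% and 16.9%. Transformed colonies had 51.9%, 33.0%, 41.0% and 75.6%, and normal colonies 68.2%, 31.5%, 86.1% and 46.3%. B[a]P pools had 50.2%, 62.8%, 62.9% and 60.4%, and vehicle pools 59.1%, 75.5%, 46.9% and 56.8%. The highest of the 8, 23.4%, was thus below the lowest of the 16, 31.5%, but some libraries listed as few as 3 positions in it. Its single positions were less uniform, with 1 of 5 comparable positions lost by 20 points or more, 3 lower by less and 1 not lower.

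The other 6 windows of this class had losses of 20.7 to 25.9 points. KB708174.1:6717001-6718000 averaged 28.0% ± 15.3 in bypass and 21.6% ± 10.8 in senescence, with other means from 53.9% to 68.6%. KB708267.1:4640001-4641000 averaged 27.0% ± 19.0 and 23.7% ± 16.5 in bypass and in senescence, and 51.2% to 71.5% elsewhere. KB708155.1:2286001-2287000 averaged 9.27% ± 10.7 in bypass and 16.0% ± 4.81 in senescence, and 38.5% to 66.6% elsewhere. Each of these 3 windows had at least 13 of the 16 other libraries above the 8.

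KB708315.1:573001-574000 overlapped most of all 19, with 6 of 16 libraries above the 8. Its bypass libraries had 29.4%, 15.1%, 33.2% and 13.2%, and its senescent libraries 27.8%, 6.94%, 16.7% and 55.5%, so senescent replicate 4 alone reached the means of the other groups, 52.5% to 58.7%. Only 1 of its 3 comparable positions was lost by 20 points or more. KB708127.1:38507001-38508000 had 14.96%, 13.8%, 19.6% and 8.20% in bypass and 22.6%, 5.99%, 26.8% and 34.8% in senescence. The window's other means were 44.1% to 48.97%, and 12 of the 16 other libraries lay above the 8. Of its 3 comparable positions 1 was lost by 20 points or more, 1 was lower by less and 1 was not lower. At the lost position, 38507604, bypass and senescent means were 0.158% and 0.0525%, against 39.2% to 50.9% in the other groups. KB708136.1:10209001-10210000, with the smallest loss, averaged 21.6% ± 8.62 in bypass and 27.1% ± 10.996 in senescence, and 47.8% to 52.9% elsewhere (SD, n = 4 each).

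In the class above 30%, the culture stood at an intermediate level where the other groups were mostly methylated. KB708149.1:8247001-8248000 had the most positions, 11 to 56 per library, with 520 to 2913 reads. Bypass libraries had 26.6%, 44.1%, 61.6% and 66.2%, and senescent libraries 38.6%, 34.8%, 40.5% and 77.2%. Transformed colonies had 97.3%, 98.1%, 99.0% and 100.0%, and normal colonies 96.9%, 95.5%, 58.3% and 99.5%. B[a]P pools had 73.7%, 92.8%, 97.0% and 96.8%, and vehicle pools 75.7%, 49.4%, 99.6% and 81.8%. The 4 transformed colonies were nearly fully methylated and above all 8, while normal colony replicate 3, B[a]P pool replicate 1 and vehicle pool replicates 1 and 2 fell within the range of the 8.

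KB708204.1:7169001-7170000 had the most even senescent libraries of this class. Bypass libraries had 46.8%, 45.2%, 46.1% and 66.7%, and senescent libraries 51.0%, 53.2%, 49.2% and 49.5%. Transformed colonies had 76.3%, 82.7%, 87.3% and 83.5%, and normal colonies 72.4%, 68.2%, 100.0% and 89.7%. Pools treated with B[a]P had 100.0%, 43.6%, 67.7% and 100.0%, and vehicle pools 93.7%, 100.0%, 100.0% and 72.0%. Replicate 2 of the B[a]P pools lay below the 8, and the 15 other libraries above them. KB708197.1:7050001-7051000 likewise had 15 of 16 libraries above the 8, and averaged 44.9% ± 7.86 in bypass and 42.5% ± 18.3 in senescence, against 88.2% ± 4.64 for transformed and 79.5% ± 8.60 for normal colonies (SD, n = 4 each). The B[a]P pools averaged 71.0% ± 12.8 and the vehicle pools 75.3% ± 12.4.

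APMT01207187.1:20001-21000, with the second largest loss of 36.9 points, was the least even. Bypass libraries had 35.3%, 62.1%, 56.3% and 0%, and senescent libraries 15.3%, 23.0%, 79.4% and 30.8%, over as few as 3 positions and 32 reads in a library. Other means ranged from 75.3% in normal colonies to 89.8% in transformed colonies, and normal colony replicate 2 at 30.2% and vehicle pool replicate 2 at 31.2% lay within the range of the 8. KB708409.1:519001-520000 averaged 40.7% ± 16.1 and 37.6% ± 16.1 in bypass and in senescence, and 70.2% to 85.2% elsewhere. Of its 5 comparable positions 1 was lost by 20 points or more and 4 were not lower, and 11 of the 16 other libraries lay above the 8. KB708217.1:3058001-3059000 averaged 50.8% ± 13.6 and 43.0% ± 9.45 in bypass and in senescence, and 72.8% to 76.1% elsewhere. KB708153.1:19349001-19350000, at 27.4% ± 12.5 in bypass and 37.3% ± 7.32 in senescence, had other means of 61.7% to 72.2% (SD, n = 4 each). Its difference between those 2 groups, -9.89 points, was the largest of the 19, but it was -5.11 points once the positions of highest coverage were left out for the test. Of the 4 comparable positions in KB708153.1, 0 were lost by 20 points or more, 3 were lower by less and 1 was not lower.

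Libraries did not list the same positions in a window, so the loss was also followed at single positions. Those listed in at least 2 libraries of every group, called comparable positions here, numbered 133 in the 19 windows. At 70 of them (52.6%) the lowest other mean exceeded the higher of the bypass and senescent means by 20 points or more, at 34 bypass and senescence were lower by less, and at 29 they were not lower. These 70 were spread unevenly, with 20 of 22 comparable positions in KB708149.1 and 12 of 17 in KB708128.1. KB708251.1, by contrast, had 3 of 13, KB708409.1 1 of 5 and KB708153.1 0 of 4. Among the 56560 comparable positions of the 8414 windows that could be lost, 1.44% were lost by 20 points or more. The rule chose the windows by their levels over such positions. The contrast was thus set largely by the rule, and nothing is read from it. With comparable positions given equal weight, the loss was 20 points or more in 14 windows and between 0 and 20 points in 5, with a median of 22.7 points. It was largest in KB708149.1, at 46.4 points, and smallest in KB708251.1, at 9.00 points. All comparable positions were lost by 20 points or more in 1 window, APMT01207187.1, with 4 of 4.

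**Figure D3:**
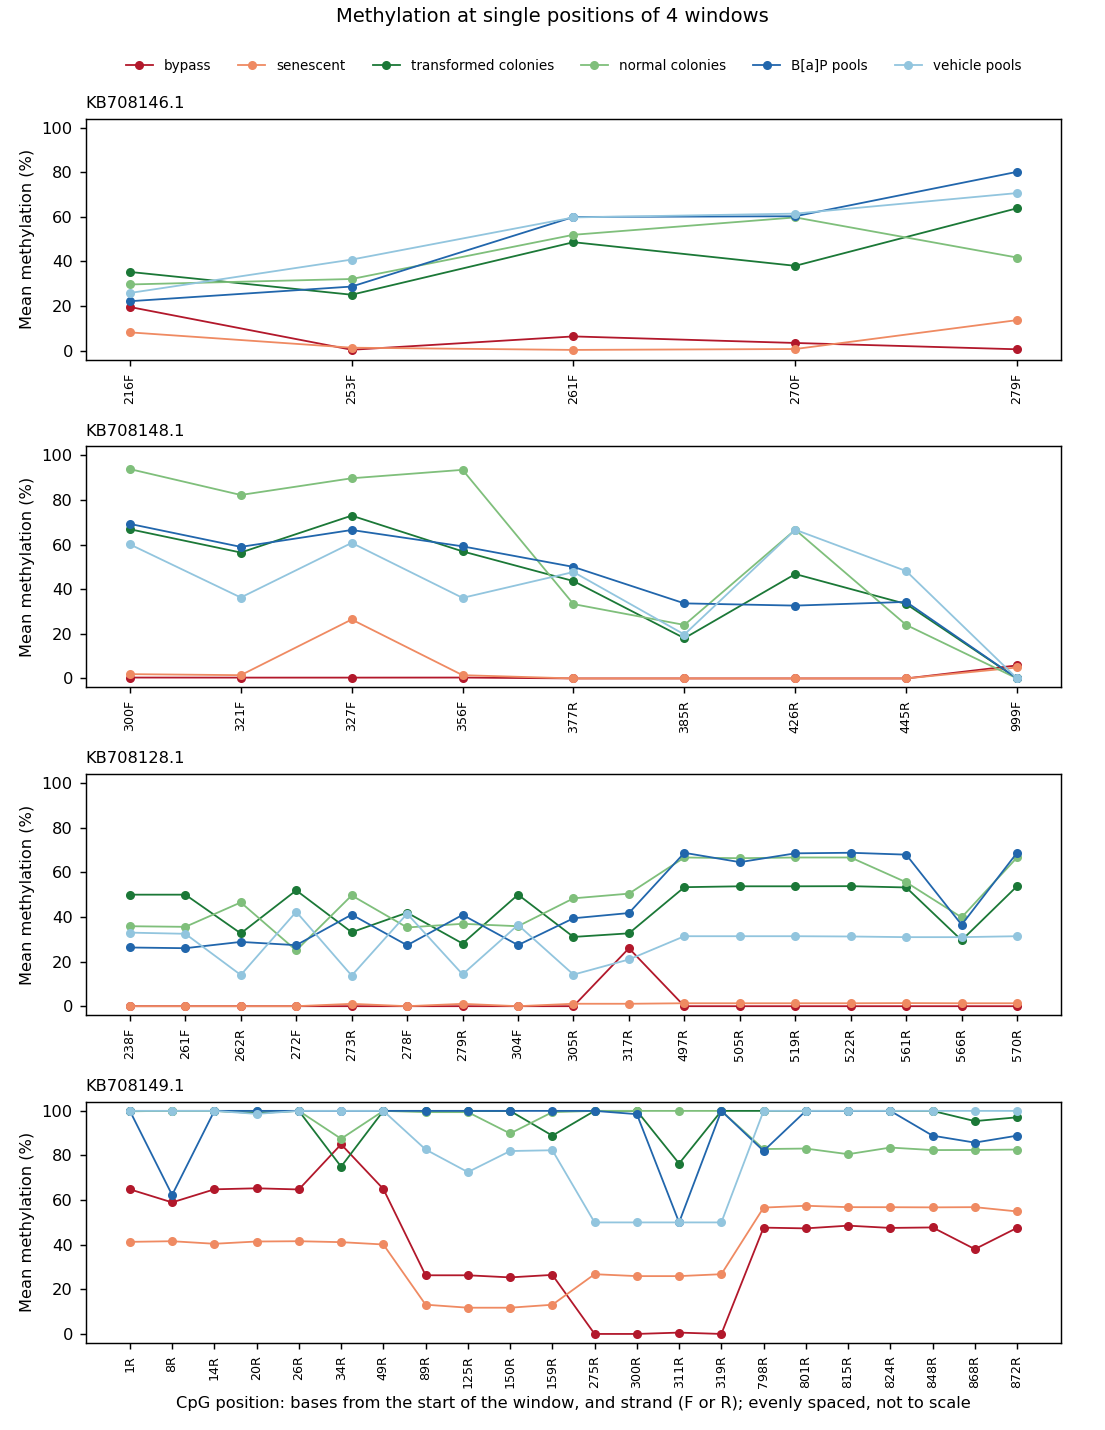
Mean methylation (percent, vertical axis) of each group at the comparable positions of 4 lost windows, ordered by distance in bases from the window's start with F and R for the strand (horizontal axis). In KB708149.1 20 of 22 positions were lost by 20 points or more, and in KB708128.1 12 of 17.

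At the position 999 bases into KB708148.1 no loss could occur, since all 16 libraries of the other groups were at 0%. Bypass libraries were at 0%, 0.62%, 22.8% and 0% there and senescent libraries at 0%, 0%, 19.6% and 0%, so replicate 3 alone carried each mean. In contrast, position 300 in the same window was at 0.403% in bypass and 1.93% in senescence against 60.1% to 93.9% elsewhere. In KB708136.1 the position 498 bases from the start was at 100% in both bypass and senescence and at 71.3% to 100% elsewhere, while 3 others were lost by 20 points or more. Lost and unlost positions therefore lay within 1 window.

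Pooled over all listed positions of the windows, the groups differed in the share of values at each end of the scale. A position was at 5% or less in 59.9% of 715 values in bypass and 61.2% of 814 values in senescence. That share was 17.8% for transformed and 22.3% for normal colonies, and 20.2% for B[a]P and 25.2% for vehicle pools. Positions at 95% or more made up 13.4% and 12.5% of values in bypass and in senescence. For transformed and normal colonies they made up 52.8% and 48.7%, and for B[a]P and vehicle pools 44.9% and 43.1%. Values in between took a like share of 26.3% to 34.9% in the 6 groups. The rule favours this difference, so it is no separate evidence of a loss. Libraries also did not list the same positions, so the shares reflect in part which positions were listed. In KB708148.1 the positions 182, 211, 233 and 249 bases from the start were listed only in bypass and senescent libraries, at 0%. That part was not tested. Over the windows that could be lost, the share at 5% or less was 13.6% in bypass, 14.7% in senescence and 16.7% to 19.96% in the others.

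**Figure D4:**
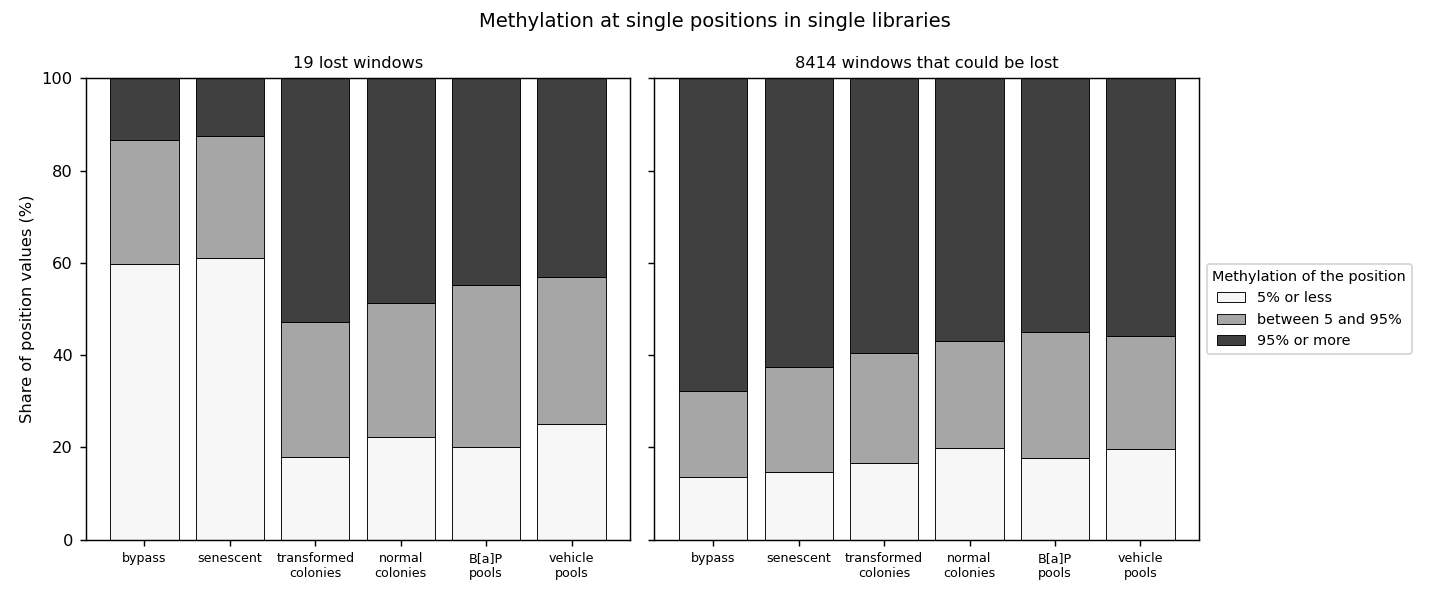
Share of position values (percent, vertical axis) at 5% or less, between 5% and 95%, and at 95% or more in each of the 6 groups, for the 19 lost windows (left) and the 8414 windows that could be lost (right). The lowest class holds 59.9% of bypass and 61.2% of senescent values in the lost windows, against 13.6% and 14.7% in the windows that could be lost. All listed values are shown, and the positions listed differ between groups.

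Replicates differed widely at single positions. Across positions listed in all 4 libraries of a group, the range from lowest to highest library had a median of 37.4 points in bypass and 21.3 in senescence. It was 61.0 points for transformed and 84.7 for normal colonies, and 48.5 for B[a]P and 47.2 for vehicle pools. In the windows that could be lost these medians were lower, at 10, 17.7, 35, 42.3, 35.5 and 36.5 points in the same order. Those windows lay nearer the top of the scale, with median levels of 75.3% to 83.6% in the 6 groups. In the lost windows the other 4 groups had median levels of 54.3% to 59.1%. The part of level in the wider ranges was not tested. At 15 of 77 positions in bypass (19.5%) and 13 of 106 in senescence (12.3%) technical replicates of the culture were at least 95 points apart, against 9.57% and 10.2% in the windows that could be lost.

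The start of KB708149.1 shows this spread. At 7 positions of 1 strand from 8247002 to 8247050, bypass replicates 2 and 3 were at 100% and at 96.4% to 96.6%, while replicate 4 was at 39.5% to 64.6% and replicate 1 at 0% to 81.0%. Senescent replicate 4 was at 100% and replicate 2 at 0% at all 7 positions, with replicate 1 at 53.5% to 55.8% and replicate 3 at 5.88% to 11.1%. These technical replicates had 111 to 115 reads per position at 0%, and 35 to 36 at 100%. Neighbouring positions in a library mostly shared 1 value while replicates of the same culture did not. What gave this pattern was not tested. Reads without molecular identifiers are not independent molecules, so the reads behind a position overstate its precision.

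The 2 strands of a CpG were compared as well. Over 74 CpGs of the lost windows listed on both strands, the median difference between strands within a library was 1.13 points in bypass and senescent libraries together, and 14.3 points in the other 4 groups. It was 0 and 3.30 points in the windows that could be lost. Strands were within 20 points of each other in 64.2% of the culture's pair values and in 51.9% of those of the other groups, against 69.3% and 62.5% in the windows that could be lost. They were over 80 points apart in 12.1% and 11.2% of pair values, against 7.57% and 9.21%. Since most values of the culture in these windows were at 5% or less, its low median lies partly at the floor of the scale.

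Lost windows were sparsely covered. Their median was 6.38 positions per library, against 9.71 in windows that could be lost, 13.1 in the 269 gained windows and 18.1 in all windows. The minimum over libraries was exactly 3 positions in 14 of the 19 (73.7%), against 42.8% of windows that could be lost. Median reads per window, 396.5 and 405.5, were close. In 11 lost windows no position was listed in all 24 libraries, and 5 windows had 3 or more such positions. The median SD between replicates in a lost window was 10.3 points in bypass and 10.5 in senescence. It was 16.0 for transformed and 20.2 for normal colonies, and 14.2 for B[a]P and 16.7 for vehicle pools. In windows that could be lost it was 7.18, 7.49, 9.76, 11.5, 9.57 and 11.02 points in the same order. Levels nearer the top of the scale leave less room for spread, and the part of level in these SDs was not tested. The part of sparse coverage and of replicate spread in the losses was not tested either.

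Most measured neighbours did not share the loss. Within 5 kb of the lost windows 30 other windows had a level in at least 2 libraries of every group, beside 14 of the 19. Of these neighbours 2 were lost by 20 points or more, 3 were lower by less and 25 were not lower. Not being lower was also the usual state. The median loss was -13.0 points over the 8414 windows that could be lost and -5.83 over all measured windows. Neighbours did not need 3 positions in all 24 libraries, as the lost windows did, so their levels are less certain. The window 1 kb after KB708128.1 was at 17.7% in bypass and 13.4% in senescence, against 52.7% to 63.7% elsewhere. The window 1 kb before KB708149.1 was at 64.8% in bypass and 44.0% in senescence, against 88.9% to 100.0% elsewhere, on 2 positions. The window 1 kb after it was at 61.5% in both, against 79.8% to 98.5%, so that 3 neighbouring windows were lower there. Beside KB708155.1 and KB708148.1, by contrast, the window 1 kb further on was nearly unmethylated in every group, at 0.185% to 1.85% and at 1.002% to 6.25%. Those around KB708197.1 were higher in bypass, at 84.8% before and 66.3% after it, than in any other group.

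**Figure D5:**
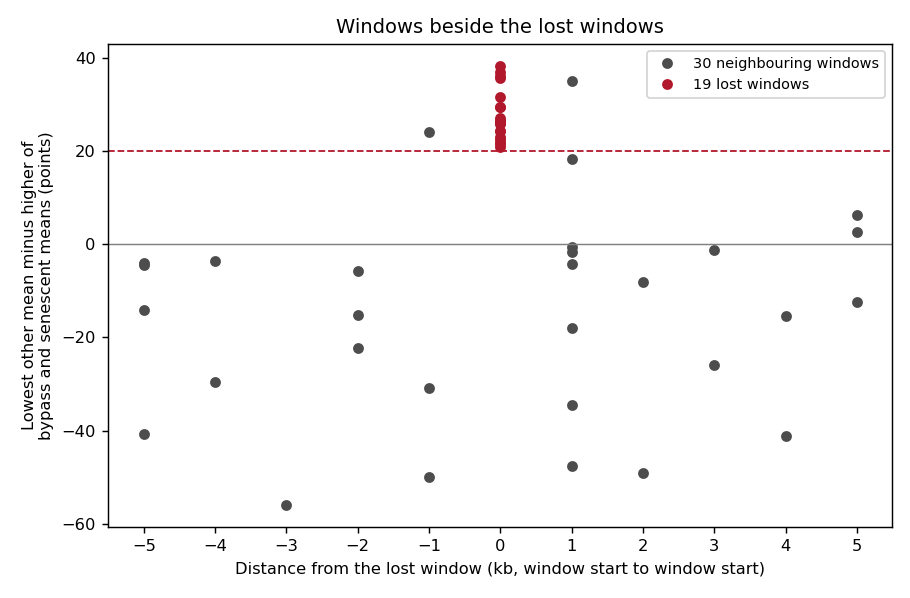
Loss in points (vertical axis) of the 30 windows within 5 kb of a lost window (grey) by their distance in kb (horizontal axis), with the 19 lost windows at distance 0 (red). The dashed line marks the 20 point limit, which 2 neighbours, both 1 kb away, exceed.

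Between the 2 states of the culture the windows were alike in mean by the rule, which holds the difference under 15 points. The bypass mean was above the senescent mean in 13 windows and below it in 6, and the differences ran from -9.89 to 7.83 points. A quasi-binomial model of methylated and unmethylated reads was fitted to every window tested, with an adjusted p below 0.05 and a difference of at least 10 points required for a call. Of the 16 lost windows tested, 0 were called and 0 had an unadjusted p below 0.05, against 3.62% called of the 24638 windows tested (3.31% higher and 0.304% lower in bypass) and 19.9% at an unadjusted p below 0.05. The 4 libraries of each state are technical replicates of 1 culture, so these p-values and calls measure technical spread only and do not extend to other cultures. The rule held this difference small, and nothing is read from the count. The other 3, KB708128.1, KB708148.1 and KB708251.1, had under 5% pooled methylation and were not tested. edgeR's quasi-likelihood test called 0 of the 16, beside 0 of all 24638 windows. By edgeR 0 of the 16 had an unadjusted p below 0.05, beside 2686 over all windows.

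The comparisons among the other 4 groups enter the rule through their lowest mean. That mean had to lie at least 20 points above bypass and senescence. A window as low in transformed colonies or after B[a]P as in the culture could therefore not be among the 19. What can be seen here is only a difference among the 4 groups above that limit. No lost window was called in any of these comparisons, which at this spread does not show equal levels. Between transformed and normal colonies 0 of 19 were called, beside 0 of all 26825 windows tested (0% called), with 2 of the 19 (10.5%) and 8.12% of all windows at an unadjusted p below 0.05. By edgeR 0 windows were called, and 0 of the 19 had an unadjusted p below 0.05, beside 781 over all windows. The 2 at an unadjusted p below 0.05 were by the quasi-binomial test. One of the 2 was KB708250.1, which averaged 82.5% ± 24.7 for transformed and 35.5% ± 26.8 for normal colonies (SD, n = 4 each), a difference of 47.0 points with a quasi-binomial adjusted p = 0.534. The other was KB708149.1, at 98.6% ± 1.138 for transformed and 87.6% ± 19.6 for normal colonies, a difference of 11.03 points with a quasi-binomial adjusted p = 0.502. A share of 2 in 19 lies near that of all windows, and nothing is read from it.

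Transformed colonies and normal colonies were each set against the B[a]P pools, so these comparisons share the 4 pool libraries. Of 18 lost windows tested between transformed colonies and B[a]P pools, 0 were called, against 0.00738% of 27097 (2 windows), and 1 had an unadjusted p below 0.05, against 9.96% of all. It was KB708250.1, 27.3 points higher in transformed colonies, at 82.5% ± 24.7 against 55.3% ± 34.6 in B[a]P pools (SD, n = 4 each; quasi-binomial adjusted p = 0.462). KB708149.1 was not tested there, with over 95% pooled methylation. Between normal colonies and B[a]P pools 0 of 19 were called, beside 0 of 21991 (0% called), and 1 had an unadjusted p below 0.05, against 7.64% of all. That was KB708153.1, at 61.7% ± 21.8 in normal colonies and 72.2% ± 12.8 in B[a]P pools (SD, n = 4 each; difference -10.5 points, quasi-binomial adjusted p = 0.648). Normal colonies were higher than B[a]P pools in 4 of the 19 windows and lower in 15, with a median difference of -2.54 points, beside 49.8% of all windows higher and a median of -0.07 points. Transformed colonies were higher than B[a]P pools in 10 windows and lower in 8, beside 58.5% of all windows higher, and higher than normal colonies in 12 and lower in 7, beside 59.9%. edgeR called 0 windows in either comparison, 0 of the lost windows had an unadjusted p below 0.05 in it, and over all windows 1153 and 650 had.

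The pools differ in the exposure itself, again only among windows in which both pool means were at least 20 points above the culture. Of 19 windows 0 were called between B[a]P and vehicle pools, beside 0 of 18421 (0% called), and 1 had an unadjusted p below 0.05, against 6.36% of all. It was KB708149.1, at 90.1% ± 11.1 for B[a]P and 76.6% ± 20.8 for vehicle pools (SD, n = 4 each; difference 13.5 points, quasi-binomial adjusted p = 0.767). Levels were higher in B[a]P pools in 10 windows and lower in 9, beside 52.7% of all windows higher. The 19 differences ran from -13.6 to 28.1 points, with a median of 0.40 points beside 0.62 over all windows. By edgeR 0 of the 19 were called, beside 0 of all windows, with 0 at an unadjusted p below 0.05 and 408 over all windows. Dispersion, the factor by which replicates varied more than independent binomial counts, had a median of 43.1 in these windows and 28.0 in all. It was higher in the lost windows in each of the 5 comparisons, most between transformed and normal colonies, at 85.7 against 39.1.

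Losses were of like size just inside and just outside the 20 point limit, while spread between replicates differed. Just inside were KB708136.1 with 20.7 points, KB708127.1 with 21.5 and KB708217.1 with 21.9. Just outside was KB708228.1:7024001-7025000 with 19.7 points, at 38.7% ± 11.1 in bypass and 40.6% ± 6.13 in senescence against 60.4% to 76.4% elsewhere, over 9 to 42 positions per library. KB708169.1:5757001-5758000 followed with 19.0 points and KB708274.1:2254001-2255000 with 18.6. In KB708169.1 the SD was 44.8 points for transformed and 47.1 for normal colonies. It was 29.3 and 27.6 in KB708274.1, and 9.62 and 9.61 in KB708228.1. In the windows just inside it was at most 29.5 and 16.4. By the 15 point limit 1 window was left out, KB708273.1:4608001-4609000, with a loss of 29.98 points, at 31.7% ± 10.1 in bypass and 12.6% ± 4.78 in senescence (SD, n = 4 each). The largest differences between bypass and senescence among the 19 were -9.89 points in KB708153.1, -8.39 in KB708127.1 and 7.83 in KB708217.1, all under the 15 point limit.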

How the data were processed

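Reduced representation bisulfite libraries from 24 samples, 4 in each of 6 groups, were used, with groups and replicate numbers from the sample labels. The submitters' processing notes name methylKit 1.10.0, R 3.6.1, Bowtie2, Bismark 0.22.1, Trim Galore 0.5.0 and bcl2fastq 2.20.0.42, without roles. Sources used here do not state the genome build. The deposited tables list, per the file headers, a CpG position and strand, the count of reads covering it and the percent of them with C (methylated) or T. No deposited position has fewer than 10 reads. Whether PCR copies were removed is not stated. Coverage multiplied by that percent gave the methylated reads.

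Levels were summed over 1 kb windows, libraries weighted equally within a group. For the tests, positions in the top 0.1% of coverage were left out, and a window needed 3 positions in each of 8 libraries and pooled methylation of 5 to 95%. Pearson dispersions were squeezed with limma 3.58.1 within 10 classes of pooled methylation (floor 1); p-values came from F tests, adjusted by Benjamini-Hochberg over all windows tested. edgeR 4.0.16, a replicate block, other limits, window sizes and left-out libraries were alternatives. A preset rule named windows by loss, positions, limits and change with shared positions; with 19 windows, all are named. The windows and lists were chosen with earlier results of these data known. Python 3.11.15, numpy 2.4.6, pandas 2.3.3, matplotlib 3.10.9 and R 4.3.3 were used.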

Additional observations from a re-analysis of the deposited data

Results flagged for a closer look

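Single libraries that stood apart from the other 3 of their group, by a gap to the nearest that took up more than Dixon's 95% limit of the group's range, were looked for in the 114 groups of 4 values (19 windows, 6 groups). For independent, normally distributed values that limit flags about 5.7, or 1 in 20 groups, but levels bounded at 0% need not follow it. There were 13 such libraries, and no excess is read from the count. Of these 8 were bypass or senescent libraries. Bypass replicate 3 stood at 5.87% in KB708148.1, against 0% to 0.985% in the other 3, and at 64.7% in KB708409.1, against 30.6% to 34.6%. Bypass replicate 4 stood at 10.3% in KB708128.1, against 0% to 0.778%, and at 66.7% in KB708204.1, against 45.2% to 46.8%. Bypass replicate 1 stood at 17.2% in KB708251.1, against 0% to 1.47%. Senescent replicate 2 stood at 0% in the KB708174.1 window from 12197001, against 16.9% to 20.3%, and at 21.1% in KB708250.1, against 0% in each of the others. Senescent replicate 4 stood at 77.2% in KB708149.1, against 34.8% to 40.5%.

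The 5 others were in colonies and B[a]P pools. Transformed colony replicate 4 stood at 27.4% in KB708267.1, against 56.6% to 60.7%, and replicate 2 at 92.7% in KB708127.1, against 32.8% to 34.8%. Normal colony replicate 3 stood at 58.3% in KB708149.1, against 95.5% to 99.5%. B[a]P pool replicate 2 stood at 83.4% in KB708267.1, against 59.1% to 62.0%, and replicate 4 at 41.0% in KB708127.1, against 50.4% to 52.3%. The cause of these values was not tested.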

How the results depend on the processing

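The count of 19 windows depended on the limits. It was 8 of 9722 measured windows with at least 20 reads per position. With at least 5 and 10 positions in each library it was 4 of 13840 and 2 of 6213. With only positions shared by all 24 libraries it was 7 of 2266. Of the 19 windows, 7, 4, 2 and 5 could be measured in these settings, in that order, and all of those still met the rule. A limit of 15, 25 or 30 points in place of 20 gave 43, 12 and 5. With 1 library left out it was 16 to 24, and 5 of the 19 met the rule in all 24 cases. It was 17 to 23 with other weights, window sizes and starts, without the highest coverage and without the lower-coverage scaffolds, with 15 of the 19 kept under unweighted means and 13 with shifted windows. Among alternatives chosen after seeing the data, leaving out normal colony and vehicle pool replicate 2 together gave 17 and dropping the 15 point limit gave 20. The loss of KB708148.1 reversed, to -5.85 points, over positions shared by all 24 libraries, which left it 1 position. Of 72 losses of single windows under alternatives, 68 stayed within 1 SD, and the other 3 were 41.1 points in KB708148.1 unweighted, and 9.00 in KB708251.1 and 10.8 in KB708155.1 over comparable positions. Within 1 SD, but over 1.5 times from its first value, the loss of KB708217.1 was 11.3 points unweighted, under the 20 point limit, and that of KB708149.1 was 46.4 over comparable positions. No lost window was called under any of 75 settings of the 5 tests, but nothing is read from this. The rule held the difference between bypass and senescence small, and the other comparisons called at most 23 of all windows tested in any setting.

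Counts of called windows moved more. For bypass against senescence, where calls rest on technical replicates of 1 culture, 891 were called, 445 with 20 reads per position, 291 over shared positions, 170 without squeezing, 0 by edgeR and 426 to 734 with a library left out (478, 542 and 592 without bypass replicates 2, 3 and 4, and 543, 426 and 443 without senescent replicates 1, 3 and 4). For transformed colonies against B[a]P pools, 2 were called, 0 without the coverage limit, over shared positions, without squeezing or by edgeR, 5 with 20 reads, 4 with 5 positions and 0 to 10 with a library left out (10 without transformed colony replicate 1, and 0 without transformed colony replicate 2 or 3 or any B[a]P pool). For normal colonies against B[a]P pools, 0 were called, 2 with 20 reads or 5 positions, and 1 over shared positions or without squeezing. Leaving out a library gave 0 to 1 there, between transformed and normal colonies and between the pools (1 without normal colony replicate 1 or B[a]P pool replicate 4, normal colony replicate 3 or 4, and vehicle pool replicate 1, in that order). With replicate number as a block, 513 were called for bypass against senescence, 23 for transformed against normal colonies, 18 and 12 for transformed and normal colonies against B[a]P pools, and 9 between the pools. Replicates with the same number did not pair (correlation of deviations -0.03 to 0.03). The cause of these shifts was not tested. Windows with few positions, and positions that differed between libraries, limit the precision of the levels.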
